A study of Rattus norvegicus with 8 samples.

Results

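Small leucine-rich proteoglycans (SLRPs) are secreted matrix proteins that bind collagen, and their transcripts were measured here in the outflow veins of rat arteriovenous fistulas (AVFs). The family was taken as 9 genes chosen by symbol: Dcn, Bgn, Lum, Fmod, Ogn, Prelp, Aspn, Podn and Omd. Symbols were matched to the gene names in the count files, which found 8 of the 9 among 32623 listed genes. Podn was not found under that name and was not analysed here. Of the 8, 5 (Dcn, Bgn, Lum, Fmod and Prelp) had enough reads to be tested among 11682 genes, and Ogn, Aspn and Omd fell below the filter.

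All 8 animals were Sprague Dawley rats in which the epigastric vein was joined to the femoral artery, and every vein was wrapped at surgery with a bilayer nanofiber scaffold of PLA and PLGA, so that the controls carried the operation and the polymer too. The BAPN group (n = 4, 3 females and 1 male, BAPN 4) received scaffolds loaded with β-aminopropionitrile, an inhibitor of lysyl oxidase, the enzyme family that crosslinks collagen and elastin. The Vehicle group (n = 4, 2 females, Vehicle 1 and 2, and 2 males, Vehicle 3 and 4) received scaffolds without the drug. Veins were taken on day 21, and each library is 1 animal. The age of the rats was not given in the sources used here. The comparison asks how drug release around the vein altered gene expression in the vein wall.

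SLRPs have a core of leucine-rich repeats that docks on collagen fibrils, where it limits their lateral growth and spacing. Most members carry sulfated sugar chains: chondroitin or dermatan sulfate on decorin and biglycan, keratan sulfate on lumican and fibromodulin. In the vessel wall they are made mainly by adventitial fibroblasts and smooth muscle cells, and several bind growth factors of the transforming growth factor β (TGF-β) family.

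The total count per library lay between 45039451 and 52241007 in the BAPN group and between 19548203 and 22442050 in the Vehicle group, so effects of depth, or of any step of library preparation done by group, and effects of the drug cannot be told apart. Levels are given as CPM, read counts scaled to a common library size by the TMM method. Transcripts of smooth muscle myosin (Myh11, 277 to 1540 CPM) and of endothelial cadherin (Cdh5, 69.5 to 336 CPM) were present in all 8 veins. The libraries were not alike within groups: Vehicle 4 had the highest share of reads on the type I collagen gene Col1a1 (4.67% of counts, against 0.989% to 2.94% in the other 7), and values without it are given beside the results that it moved most. These are bulk samples, in which fewer cells of a type and less RNA per cell cannot be told apart. P-values set the difference between the groups against the spread among the animals within them.

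None of the 5 tested SLRP genes passed edgeR's quasi-likelihood test at a Benjamini-Hochberg adjusted p (FDR, over all 11682 genes) below 0.05, where 16.8% of all genes passed. At an unadjusted p below 0.05 the count was 1 of 5 (Prelp) against 35.8% of all genes. DESeq2, run as an alternative, called the same 1 gene lower with BAPN, where it called 27.4% of all genes, 12.3% higher and 15.1% lower. The groups overlapped in CPM for all 5, while 24.7% of all tested genes did not overlap. All 5 estimates lay below 0, against 48.4% of all genes, with log2 fold changes from −1.08 to −0.06 and a median of −0.65, beside a median of 0.02 for all tested genes. The count was 4 of 5 without Vehicle 4 and 3 of 5 in females alone. The median was −0.29 without Vehicle 4 and −0.13 in females alone.

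**Figure D1:**
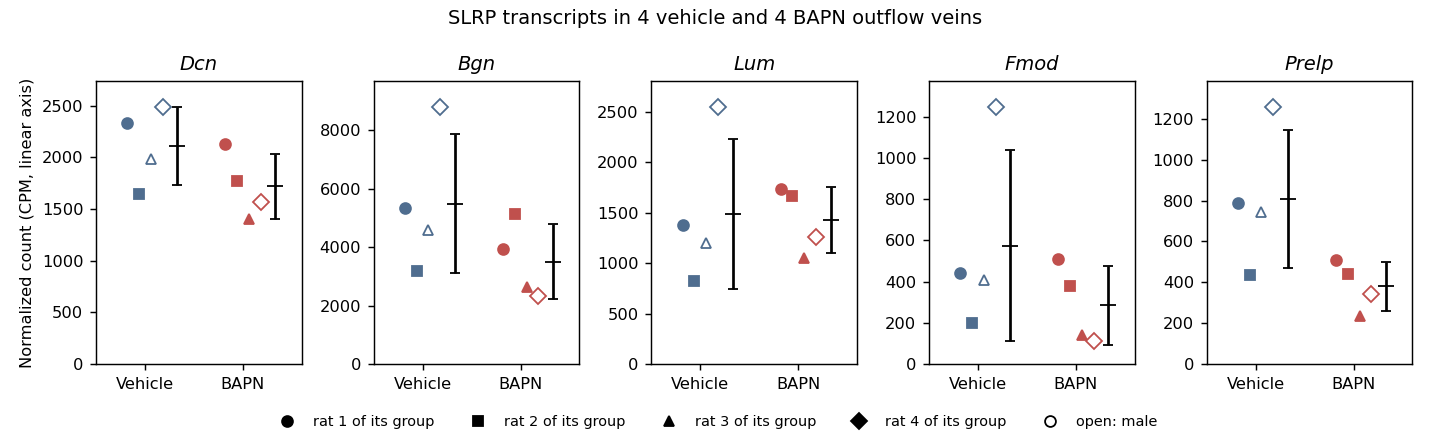
Normalized counts (CPM, linear axes from 0) of the 5 tested SLRP genes in each vein, with Vehicle in blue, BAPN in red, males as open symbols and the mean ± SD of 4 veins in black. For every gene the highest of the 8 values is Vehicle 4 and the 2 groups overlap.

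Of the class I members, decorin (Dcn) carries a chondroitin or dermatan sulfate chain and binds both collagen and TGF-β. Dcn stood at 2131.5, 1768.5, 1405 and 1571 CPM in BAPN 1 to 4, and at 2330, 1641, 1979.6 and 2490.1 CPM in Vehicle 1 to 4. BAPN 3 and BAPN 4 were the lowest veins, BAPN 1 lay above 2 of the Vehicle veins, and the groups overlapped. The means were 1719 ± 313 CPM with BAPN against 2110.1 ± 378 CPM with Vehicle (mean ± SD, n = 4 each). The log2 fold change was −0.30 (SE 0.20, edgeR FDR = 0.312) and its 95% interval from limma ran from −0.74 to 0.15. Among the 5 genes Dcn varied least, with a coefficient of variation of 18.2% among BAPN veins and 17.9% among Vehicle veins.

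Biglycan (Bgn), the closest relative of decorin, carries a pair of such chains, and its soluble form is a ligand of Toll-like receptors. Its level was 3926, 5125, 2648 and 2325 CPM in BAPN 1 to 4 against 5341, 3201, 4604 and 8812 CPM in Vehicle 1 to 4. Vehicle 4 stood far above all other veins, and BAPN 2 lay within the range of the Vehicle group. The means were 3506 ± 1282 CPM with BAPN against 5489.6 ± 2386 CPM with Vehicle. The log2 fold change of −0.65 (SE 0.35, interval −1.42 to 0.17) had an FDR of 0.222 by edgeR, and it was −0.32 without Vehicle 4. Bgn lies on the X chromosome, and the groups differ in their mix of sexes. With sex as a covariate the log2 fold change was −0.60, and in females alone it was −0.13.

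Of the class II members, lumican (Lum) carries keratan sulfate and sets the spacing of collagen fibrils in the cornea and skin. Its values were 1736, 1663, 1047 and 1256 CPM with BAPN against 1378, 817, 1196 and 2548 CPM with Vehicle. The Vehicle values spanned both the lowest and the highest of the 8, with all 4 BAPN values between them. The means of 1425.5 ± 329 CPM with BAPN against 1485 ± 746 CPM with Vehicle were nearly equal. Its log2 fold change was −0.06 (SE 0.34, interval −0.74 to 0.81, edgeR FDR = 0.915), and the sign turned in other fits, to 0.03 in the limma-voom fit that gave the interval, to 0.33 without Vehicle 4 and to 0.43 in females alone. No direction can be given for Lum from these 8 veins.

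Fibromodulin (Fmod), the nearest relative of lumican, binds type I collagen and is known to bind lysyl oxidase itself, the enzyme that BAPN inhibits. Fmod was the most variable of the 5, at 509, 377, 142 and 111 CPM in BAPN 1 to 4 and at 444, 198, 405 and 1248 CPM in Vehicle 1 to 4. BAPN 1 exceeded 3 of the Vehicle veins, and the highest vein exceeded the lowest of its own group 4.57 times with BAPN and 6.30 times with Vehicle. The group means of 285 ± 191 CPM with BAPN against 574 ± 462 CPM with Vehicle gave a log2 fold change of −1.01 (SE 0.62, interval −2.36 to 0.41, edgeR FDR = 0.267). That estimate was −0.29 without Vehicle 4, −1.45 without BAPN 1 and 0.09 in females alone. At this spread the estimate of −1.01 was not called, and which difference could be detected was not tested.

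PRELP (Prelp), a basic class II member that binds heparan sulfate of the basement membrane through one end and collagen through its repeats, had the lowest log2 fold change of the 5. Its levels were 509, 440.3, 234 and 342 CPM in BAPN 1 to 4, against 790.1, 434, 746 and 1259 CPM in Vehicle 1 to 4. Vehicle 1, 3 and 4 lay above all 4 BAPN veins, and the overlap came from Vehicle 2, which lay below BAPN 1 and BAPN 2. The means were 381 ± 119.9 CPM with BAPN against 807 ± 340.0 CPM with Vehicle.

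The log2 fold change of Prelp was −1.08 (SE 0.34) with an edgeR FDR of 0.0546, just above the threshold, and a DESeq2 FDR of 0.00684, below it. A two-sided exact permutation test of log2 CPM (n = 4 each) gave p = 0.0857, where 0.0286 is the smallest p that 4 animals against 4 allow. Without Vehicle 2 the log2 fold change was −1.29, the groups no longer overlapped and edgeR called the gene (FDR = 0.0241). With any other library left out edgeR did not call it, and the estimate nearest to 0 was −0.78, without Vehicle 4 (edgeR FDR = 0.113). DESeq2 called Prelp with each of the 8 libraries left out in turn, with FDR values from 0.000232 to 0.0377. In females alone the estimate was −0.64 (edgeR FDR = 0.33) and with sex as a covariate it was −0.95 (edgeR FDR = 0.126). Whether Prelp is called thus depended on the test and on single animals, while the direction was negative in every fit made.

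**Figure D2:**
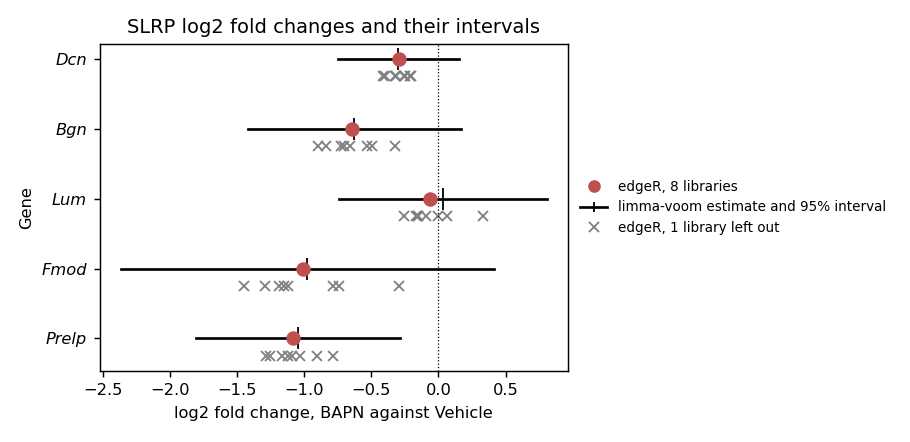
Log2 fold changes of BAPN against Vehicle (x axis) for the 5 tested SLRP genes: red points are edgeR estimates from 8 libraries, black ticks and lines the limma-voom estimates with 95% intervals that are not adjusted for multiple testing, and grey crosses edgeR estimates with 1 library left out. Only the interval of Prelp (−1.81 to −0.29) lies wholly below 0, and the crosses of Lum fall on both sides of 0.

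The remaining class II member, osteomodulin (Omd), is a keratan sulfate proteoglycan of bone. It had 5 reads over all 8 libraries and between 0 and 3 in any one, at which no difference could be detected. Osteoglycin (Ogn), the class III member that is also called mimecan, had 70, 169, 96 and 53 reads in BAPN 1 to 4 against 126, 26, 107 and 80 reads in Vehicle 1 to 4. That was 1.45, 3.33, 2.21 and 1.11 CPM with BAPN against 5.90, 1.28, 4.5 and 3.82 CPM with Vehicle, with Vehicle 2 again apart from the other 3 Vehicle veins. Its base mean of 93.6 lay just below the filter of 100. With the looser filter of edgeR's filterByExpr its log2 fold change was −0.92 (edgeR FDR = 0.23).

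Asporin (Aspn), a class I member that has a run of aspartate in place of sugar chains, had 3, 28, 8 and 11 reads with BAPN and 15, 17, 17 and 31 reads with Vehicle. In CPM the BAPN veins (0.0622 to 0.552) lay wholly below the Vehicle veins (0.702 to 1.48). Such a separation always gives the smallest two-sided exact permutation p of this design, 0.0286 (n = 4 each), so the p adds nothing to it. Among the tested genes, which do not include Aspn, 24.7% did not overlap either. With filterByExpr the log2 fold change was −1.82 (edgeR FDR = 0.102). The files also list Aspnl1, a name that RefSeq gives as a synonym of Aspn, and it is not stated how reads were divided between the entries. Summed over both entries, BAPN (0.290 to 1.16 CPM) and Vehicle (1.04 to 3.49 CPM) overlapped, with an exact permutation p of 0.0571. The separation of the groups for Aspn therefore depended on which gene model was counted. Ogn, Omd and Aspn stand next to each other within the span of the centromere gene Cenpp on chromosome 17, and since the strand setting of the counting was not given, reads of overlapping genes are uncertain for these 3.

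Most SLRP genes lie in small clusters in the genome. In the RefSeq annotation of the rat assembly GRCr8, Dcn and Lum are adjacent on chromosome 7, followed by Kera and Epyc, and Optc, Prelp and Fmod are adjacent on chromosome 13. The adjacent Dcn and Lum had log2 fold changes of −0.30 and −0.06, and the adjacent Prelp and Fmod had −1.08 and −1.01. Without Vehicle 4 these values were −0.21 and 0.33 for Dcn and Lum, and −0.78 and −0.29 for Prelp and Fmod. Kera and Epyc, members found mainly in cornea and cartilage, stayed at or below 1.31 and 2.15 CPM in every vein, and Optc, known from the eye, stayed at or below 3.11 CPM. Podn is annotated on chromosome 5, away from these clusters.

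The promoters of 6 of the 9 genes were in the RefSeq sequence table (GRCr8), and those of Lum and Fmod, tested class II relatives with log2 fold changes of −0.06 and −1.01, are shown. Neither gene was called, and without Vehicle 4 their log2 fold changes were 0.33 and −0.29. Each promoter is the 250 bases upstream of the annotated start, 5′ to 3′ on the plus strand, chr7:34245456-34245705 for Lum and chr13:48045317-48045566 for Fmod. Capitals mark matches to the letters of a CCAAT box (CCAAT, or its reverse complement) or a GC box (GGGCGG).
Lum: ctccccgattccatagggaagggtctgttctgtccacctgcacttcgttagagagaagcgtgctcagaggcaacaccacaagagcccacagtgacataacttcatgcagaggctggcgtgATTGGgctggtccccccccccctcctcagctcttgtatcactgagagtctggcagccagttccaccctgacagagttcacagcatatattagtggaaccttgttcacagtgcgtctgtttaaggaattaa
Fmod: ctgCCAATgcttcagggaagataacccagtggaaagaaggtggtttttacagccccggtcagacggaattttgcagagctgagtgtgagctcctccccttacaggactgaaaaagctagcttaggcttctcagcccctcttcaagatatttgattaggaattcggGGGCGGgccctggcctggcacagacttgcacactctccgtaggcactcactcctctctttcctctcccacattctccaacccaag
Lum holds 1 CCAAT match, which starts 130 bases before the start, and Fmod holds 1 CCAAT match at 247 bases and 1 GC box match at 85 bases before it. Neither holds TATAAA or CAGACA, letters bound by TATA-binding protein and by Smad proteins. Searched on both strands of 33469 promoters, CCAAT was present in 34.0%, GGGCGG in 30.5%, TATAAA in 12.9% and CAGACA in 17.2%. Such matches describe letters and not bound sites, and no binding was measured.

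The 5 genes varied together from vein to vein. Vehicle 4 was the highest of the 8 veins for 5 of 5 genes and Vehicle 2 the lowest of its group for 5 of 5. In the BAPN group BAPN 1 was highest for 4 genes and BAPN 2 for Bgn, while BAPN 3 was lowest for 3 genes and BAPN 4 for 2. Over 8 libraries the Pearson correlation of log2 CPM between members ran from 0.629 (Lum and Prelp) to 0.955 (Bgn and Fmod), and after subtraction of the group means from 0.806 (Dcn and Bgn) to 0.961 (Lum and Prelp). All these values share 8 libraries, their groups and their scaling, so they are given as a description. Lum and Prelp thus had the lowest correlation of all pairs across the groups and the highest within them.

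**Figure D3:**
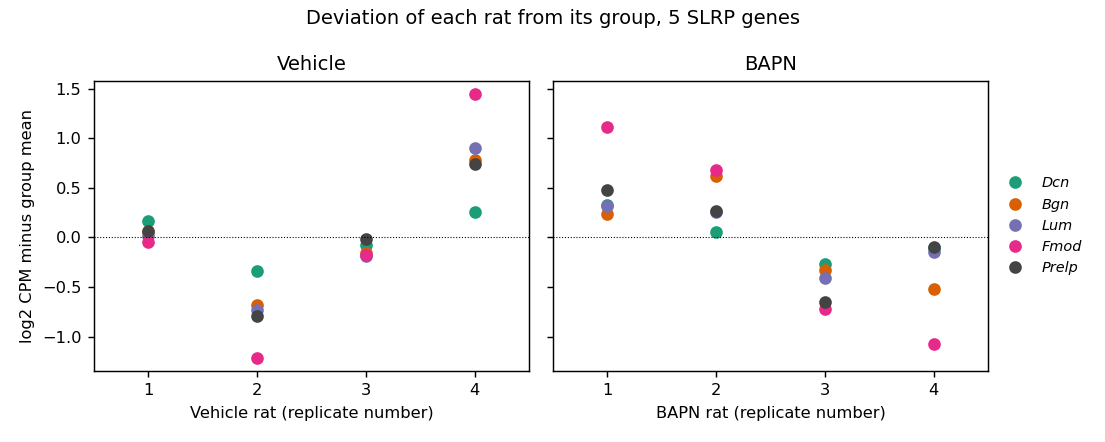
Deviation of log2 CPM from the group mean (y axis) for the 5 tested SLRP genes in each Vehicle rat (left) and BAPN rat (right). All 5 genes lie above 0 in Vehicle 4 and in BAPN 1 and below 0 in Vehicle 2 and in BAPN 3, and Fmod has the widest range.

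Ratios of read counts within a library do not depend on library scaling, and they set the members against each other. The count of Prelp was 29.3%, 26.5%, 22.3% and 27.3% of that of Lum in BAPN 1 to 4 against 57.3%, 53.1%, 62.4% and 49.4% in Vehicle 1 to 4. The groups were separate in both sexes, and the log2 ratio was −1.93 ± 0.17 with BAPN and −0.85 ± 0.14 with Vehicle (mean ± SD, n = 4 each), a difference of −1.08. Among all other tested genes, 7.44% had a ratio to Lum that did not overlap between the groups and 21.4% a ratio to Prelp that did not. Pairs among the members were compared after the values were seen, so these differences are a description without a test.

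Of the 10 pairs among the 5 members, 3 had ratios that did not overlap. Besides Prelp to Lum they were Prelp to Dcn, at 16.6% to 24.9% with BAPN and 26.5% to 50.6% with Vehicle, and Lum to Bgn, at 0.324 to 0.540 with BAPN and 0.255 to 0.289 with Vehicle. Ratios to Dcn did not overlap for 13.1% of all other tested genes and ratios to Bgn for 5.5%, beside the shares for Lum and Prelp above. In every BAPN vein there was less Prelp relative to Lum and Dcn, and more Lum relative to Bgn, than in any Vehicle vein.

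The members were also set against Col1a1, the gene of the main collagen that they coat. Lum stood at 11.1%, 10.5%, 10.2% and 10.3% of the Col1a1 count with BAPN and at 7.05%, 6.95%, 4.30% and 5.21% with Vehicle, with no overlap and a log2 difference of 0.87. Ratios to Col1a1 did not overlap for 8.33% of all other tested genes. For the other 4 members the groups overlapped, with Dcn at 11.2% to 13.7% against 5.09% to 13.9%, Bgn at 19.1% to 32.4% against 16.6% to 27.3%, Fmod at 0.914% to 3.25% against 1.46% to 2.55% and Prelp at 2.27% to 3.25% against 2.57% to 4.04% (BAPN against Vehicle). Counts were not divided by transcript length, so a ratio compares veins and not the abundance of the 2 transcripts.

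**Figure D4:**
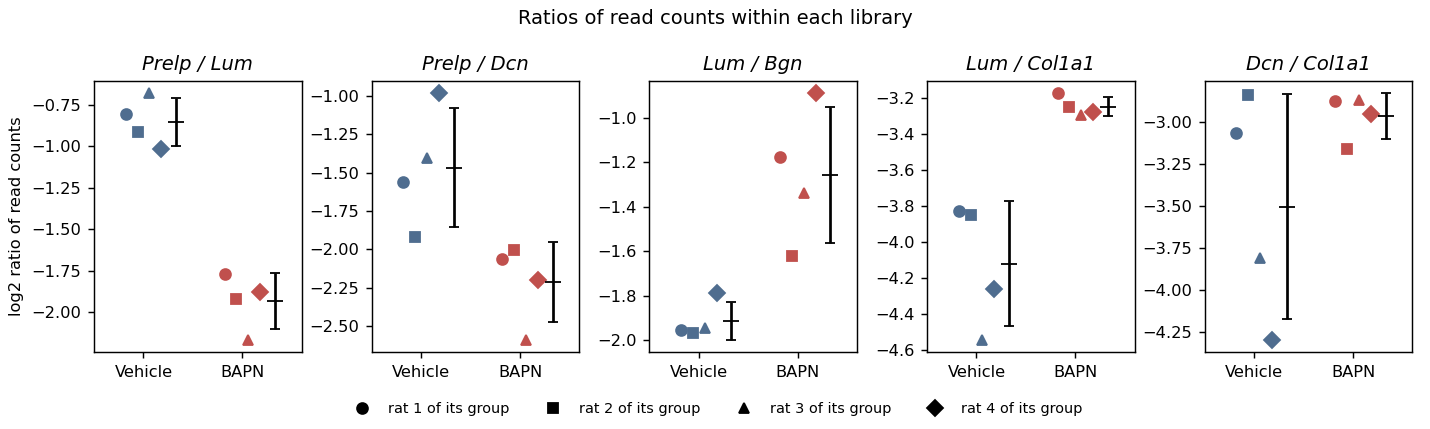
Log2 ratio of the read counts of 2 genes within each library (y axes, each with its own range) for Vehicle and BAPN veins, with the mean ± SD of 4 in black. The groups are separate for Prelp/Lum, Prelp/Dcn, Lum/Bgn and Lum/Col1a1 and overlap for Dcn/Col1a1.

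For each of the 4 members with the highest mean level, the genes whose pattern over the 8 libraries was most like it were listed by Pearson correlation of log2 CPM. Bgn was followed most closely by Mpdz (r = 0.994), Ddr1, a receptor for collagen (r = 0.993), and Gpc4, a cell surface heparan sulfate proteoglycan (r = 0.986). For Dcn they included Fam13a (r = 0.988) and Sec16a, a component of endoplasmic reticulum exit sites (r = 0.969). Lum was closest to Ror2, a Wnt receptor (r = 0.973), Fkbp14, a procollagen chaperone of the endoplasmic reticulum (r = 0.973), and Slc10a3 (r = 0.967).

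Prelp was closest to Sh3pxd2a, a scaffold protein of podosomes (r = 0.991), Hey1, a target of Notch signaling (r = 0.990), and Arid5b (r = 0.990). Of these 3, Sh3pxd2a (log2 fold change −1.58, edgeR FDR = 0.0366) and Arid5b (−0.75, edgeR FDR = 0.0424) were called, each in 2 of the 8 fits with 1 library left out. The mean of all 5 standardized members was closest to Sec24d, a coat protein of vesicles that leave the endoplasmic reticulum (r = 0.991). It was not called (log2 fold change −0.37, edgeR FDR = 0.309), nor were Hey1 or the genes listed for Bgn, Dcn and Lum.

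Other genes of the SLRP family were low. Of 8 found, 2 were tested, Tsku with a log2 fold change of −0.38 (edgeR FDR = 0.285) and Podnl1 with −0.01 (edgeR FDR = 0.988). Without Vehicle 4 the median of the 2 was 0.23 and 1 of 2 was below 0. Neither was called, and Kera, Epyc, Optc, Chad, Chadl and Nyx did not reach the filter. The collagens that SLRPs coat had estimates below 0 for 9 of 9 tested fibrillar and fibril-associated genes, with a median log2 fold change of −0.78. None was called by edgeR, and DESeq2 called 3 lower, where 9.25% of all genes were called lower by edgeR and 15.1% by DESeq2. Without Vehicle 4 the median of these collagens was −0.30, with 7 of 9 below 0. Col1a1 had means of 13490 ± 2723 CPM with BAPN against 27010 ± 16000 CPM with Vehicle (log2 fold change −1.0, edgeR FDR = 0.118). Without Vehicle 4 the Vehicle mean was 19710 ± 8026 CPM (n = 3) and the log2 fold change −0.55 (edgeR FDR = 0.273).

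Among enzymes that build the sugar chains, most did not pass. Of 21 tested genes for the linker and for chondroitin or dermatan sulfate, 16 had estimates below 0 (median −0.24), and edgeR called 1 lower and 0 higher, beside 9.25% lower and 7.5% higher among all genes. DESeq2 called 4 of the 21 lower, beside 15.1% of all genes. Without Vehicle 4 the median was −0.12, with 14 of 21 below 0 and 0 called by edgeR. The 1 gene was Chst7, a chondroitin 6-O-sulfotransferase, at 3.84 ± 0.70 CPM with BAPN against 8.83 ± 3.66 CPM with Vehicle (log2 fold change −1.20, edgeR FDR = 0.0356). It was called in 1 of the 8 fits with 1 library left out. Dse, the epimerase that turns chondroitin into dermatan sulfate, was at 128 and 119.6 CPM (edgeR FDR = 0.674), and Chpf, a chondroitin polymerizing factor, at 132 and 188 CPM (edgeR FDR = 0.159), BAPN first.

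Of 7 tested keratan sulfate genes 5 had estimates below 0 (median −0.10) and none was called by edgeR, while DESeq2 called 1 lower, beside 9.25% of all genes called lower by edgeR and 15.1% by DESeq2. SLRPs of class II carry sulfated tyrosines, and of 7 tested genes for tyrosine sulfation and the sulfate donor, 5 had estimates below 0, and edgeR called 1 and DESeq2 called 2 lower. Without Vehicle 4 there were 4 of 7 below 0 and 0 called by edgeR. It was Tpst1, a tyrosylprotein sulfotransferase, with 36.4, 45.4, 36.9 and 38.5 CPM in BAPN 1 to 4 against 56.2, 47.6, 62.0 and 54.3 CPM in Vehicle 1 to 4. The groups did not overlap, and Tpst1 fell by 0.49 on the log2 scale (SE 0.12, edgeR FDR = 0.0282), a call kept in 2 of the 8 fits with 1 library left out, and lost without Vehicle 4. Its paralog Tpst2 was at 67.5 CPM with BAPN against 63.4 CPM with Vehicle.

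Of 10 tested genes for enzymes that process SLRPs and procollagen and their enhancers, 9 had estimates below 0 (median −0.55, or −0.31 without Vehicle 4). EdgeR called 3 lower and 0 higher, beside 9.25% lower among all genes, and called 1 lower without Vehicle 4. Adamts2, which removes the amino-terminal propeptide of procollagen, stood at 249, 240.4, 169 and 191 CPM in BAPN 1 to 4 and at 485, 289.9, 472 and 553 CPM in Vehicle 1 to 4. Every BAPN vein was below every Vehicle vein, with a log2 fold change of −1.08 (SE 0.22, edgeR FDR = 0.0169). The call held in 7 of the 8 fits with 1 library left out and was lost without Vehicle 1 (edgeR FDR = 0.053), in females alone and with the replicate number as a block (edgeR FDR = 0.061).

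Adamts5, an aggrecanase that can also cleave biglycan and decorin, had means of 31.9 ± 9.0 CPM with BAPN against 59.7 ± 15.8 CPM with Vehicle (log2 fold change −0.90, edgeR FDR = 0.0387). Mmp14, a membrane-bound collagenase, had means of 617 ± 94.8 CPM with BAPN against 1059 ± 312 CPM with Vehicle (log2 fold change −0.78, edgeR FDR = 0.0432). The call of Adamts5 was made in 2 and that of Mmp14 in 1 of the 8 fits with 1 library left out, so both were less stable than that of Adamts2. The procollagen C-proteinase enhancer Pcolce (log2 fold change −0.54, edgeR FDR = 0.223) and the gelatinase Mmp2 (−0.55, edgeR FDR = 0.235) were not called.

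Of 19 tested receptors and growth factors that SLRPs bind, 14 had estimates below 0 (median −0.30), and edgeR called 3 lower and 0 higher, beside 9.25% lower and 7.5% higher among all genes. DESeq2 called 5 lower and 1 higher, beside 15.1% lower and 12.3% higher among all genes. The 1 called higher was Cd14, a co-receptor of Toll-like receptors, at 317 ± 101 CPM with BAPN against 144 ± 71.8 CPM with Vehicle (log2 fold change 1.14, edgeR FDR = 0.0554, DESeq2 FDR = 0.00872). Tgfb3, a TGF-β ligand bound by decorin and biglycan, stood at 80.6, 200.3, 89.2 and 86.5 CPM in BAPN 1 to 4 and at 287, 163, 356 and 409 CPM in Vehicle 1 to 4. BAPN 2 lay above Vehicle 2 and the other BAPN veins lay below the whole Vehicle group (log2 fold change −1.41, SE 0.35, edgeR FDR = 0.0318). Igf1r, the insulin-like growth factor receptor to which decorin binds, was at 7.93 ± 2.15 and 14.5 ± 2.6 CPM (log2 fold change −0.87, edgeR FDR = 0.0392). Kitlg, the stem cell factor, was at 30.0 ± 7.2 and 59.1 ± 23.2 CPM (log2 fold change −0.98, edgeR FDR = 0.0439), BAPN first. Tgfb3 and Kitlg were each called in 2 and Igf1r in 1 of the 8 fits with 1 library left out, and without Vehicle 4 none of the 3 was called. The decorin receptor Lrp1 (log2 fold change −0.53, edgeR FDR = 0.145) and the integrin subunit Itgb1 (0.16, edgeR FDR = 0.521) were not called.

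Markers of cells that could supply SLRP transcripts were counted in the same way, beside 9.25% of all genes called lower. Of 14 tested fibroblast markers 13 had estimates below 0 and 3 were called lower (Cd34, Scara5 and Fbln1, called in 3, 2 and 6 of the 8 fits with 1 library left out), and their summed level was 3860 to 6330 CPM with BAPN against 3530 to 8600 CPM with Vehicle. Of 10 smooth muscle markers 10 had estimates below 0 and 6 were called lower, among them Myh11 (log2 fold change −1.60, edgeR FDR = 0.0148), with sums of 1720 to 4500 CPM against 3490 to 6460 CPM. Myh11, Lmod1 and Synpo2 were called in 8 of 8 such fits, Smtn in 4 and Cnn1 and Des in 3 each, and none of the 6 was called in females alone. Of 7 endothelial markers 7 had estimates below 0 and 2 were called lower (Vwf and Tek, in 3 and 8 of 8 fits with 1 library left out), with sums of 471 to 613 CPM against 776 to 1510 CPM. DESeq2 called 6 fibroblast, 7 smooth muscle and 4 endothelial markers lower, beside 15.1% of all genes. Without Vehicle 4, 10 of 14 fibroblast markers were below 0, with a median log2 fold change of −0.23 in place of −0.47 and a Vehicle sum of 3530 to 5810 CPM. In that fit the calls lower by edgeR numbered 1 fibroblast, 4 smooth muscle and 2 endothelial markers. The part of these markers in the SLRP values was not tested.

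SLRPs are also made by cartilage, bone and tendon cells. Of 7 tested chondrogenic and osteogenic markers 7 had estimates below 0 and 2 were called lower (Cytl1 and Alpl, in 1 and 8 of 8 fits with 1 library left out), with sums of 96.9 to 241 CPM with BAPN against 122 to 593 CPM with Vehicle, while the bone genes Sp7 and Bglap reached about 0.61 and 1.05 CPM and were at 0 in at least 1 vein. Of 3 tested tendon markers 3 had estimates below 0 and none was called, with sums of 49.4 to 120.0 CPM against 52.6 to 241 CPM. Without Vehicle 4 the tendon direction did not hold, with 1 of 2 tested markers below 0, a median log2 fold change of 0.27 and a Vehicle sum of 52.6 to 141 CPM. Aggrecan (Acan) ranged from 12.4 to 123 CPM with BAPN and from 10.6 to 277 CPM with Vehicle. The upper ends of the chondrogenic sum and of Acan were Vehicle 4: without it the Vehicle sum was 122 to 152 CPM, inside the BAPN range, with 4 of 7 estimates below 0, and Acan was 10.6 to 19.4 CPM with a log2 fold change of 1.84 (edgeR FDR = 0.109). Their part in the SLRP values was not tested.

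Markers of other cells were counted likewise, beside 7.5% of all genes called higher and 9.25% called lower by edgeR, whose calls are meant where no test is named. Estimates below 0 were found for 1 of 8 macrophage markers, with none called, and for 1 of 7 T and B cell markers, of which 3 were called higher (Cd2, Cd8a and Cd79b). With 1 library left out Cd2 was called in 8 of 8 fits, Cd8a in 4 of 8 and Cd79b in 2 of the 5 in which it passed the filter, and Cd8a and Cd79b were not called with sex as a covariate. Without Vehicle 4 only Cd2 of the 7 was called. Of the adipocyte markers 4 of 6 had estimates below 0, with 1 called lower (Plin1), and of the Schwann cell and nerve markers 2 of 6, with none called. Of 2 skeletal muscle markers 1 was below 0, and edgeR called none while DESeq2 called 1 lower, beside 15.1% of all genes. The 1 tested keratinocyte marker, Dsg3, had an estimate above 0 and was called higher. Dsg3 stood at 19.2 and 13.7 CPM in BAPN 1 and 2 but at 0.30 and 0.083 CPM in BAPN 3 and 4, and at 0 to 0.099 CPM with Vehicle, and it was called in 2 of the 6 fits with 1 library left out in which it passed the filter and not in females alone. Plin1 was called in 1 of 8 fits with 1 library left out. Without Vehicle 4 edgeR called 3 of 6 adipocyte markers lower, with 5 of 6 below 0. DESeq2 called 4 of the 6 lower with all 8 libraries, beside 15.1% of all genes. Summed levels were 2990 to 3800 CPM with BAPN against 2140 to 3280 CPM with Vehicle for macrophage markers and 2520 to 7620 CPM against 944 to 5370 CPM for adipocyte markers, of which Lpl and Fabp4 gave most. The lowest adipocyte sum was that of Vehicle 4, and without it the Vehicle range was 3230 to 5370 CPM. Summed CPM were 365 to 443 against 290 to 493 CPM for T and B cell markers, most of it Cd4 (285 to 404 against 268 to 454 CPM), which macrophages of the rat also express, 386 to 701 against 273 to 414 CPM for Schwann cell and nerve markers, 16.1 to 30.7 against 18.9 to 74.2 CPM for skeletal muscle markers and 1.96 to 24.6 against 0.741 to 5.26 CPM for keratinocyte markers. Their part in the SLRP values was not tested either.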

How the data were processed

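RNA of 8 rat outflow veins was sequenced by the authors from stranded, ribosomal RNA-depleted libraries of total RNA. The submitters' processing notes name bcl2fastq 2.17, Trim Galore and STAR. The counter, its strand setting and the genome build are not given in the sources used here. The deposited files hold raw read counts per gene, without normalization, and were used as they are. Groups, replicate numbers and sexes came from the labels. Within each group every pair of libraries differed by more than sampling noise (chi-square divided by its degrees of freedom of 68.6 or more), and each was taken as a replicate.

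The test was run on genes whose base mean reached 100 (mean of counts divided by DESeq2 1.42.0 median-of-ratios size factors, the filter of the study's methods) with edgeR 4.0.16 (TMM, quasi-likelihood F test, no covariate) in R 4.3.3, with Benjamini-Hochberg adjustment over 11682 genes and a threshold of 0.05. Standard errors and intervals are from limma 3.58.1 (voom). A prior count of 2 was added for log2 CPM. Exact permutation tests were two-sided over 70 arrangements (for Aspn, on log2 of CPM plus 0.1). The fit was tested on simulated counts of 11682 genes. It called 45 of 100 genes changed by 1 log2 unit and 82 of 100 changed by 1.5, with 8 false calls. Named genes are the 9 members, genes of the lists with an FDR below 0.05 or among the 3 highest in mean level of their list, and the 3 genes most like each of 4 members or their mean, of which 1 is not reported here. The low family genes, Sp7, Bglap, Aspnl1 and Cenpp were added to the named genes with their values known. The members and lists were chosen with earlier results of these data known. Alternatives were DESeq2, 3 other scalings, 2 other filters, sex as a covariate, the replicate block, the females by themselves, counts thinned to 1 total, and the omission of each library. DESeq2 with each library left out, the sum over Aspn and Aspnl1, ratios among all members, the alternatives for other called genes and the lists without Vehicle 4 were added after seeing the data. RefSeq (GRCr8) gave neighbours, synonyms and promoters only. Promoters of Dcn, Bgn and Prelp and transcript lengths were not used here.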

Additional observations from a re-analysis of the deposited data

How the results depend on the processing

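The count of SLRP genes called by edgeR was 0 of 5 under each other scaling and with sex as a covariate, in females alone and at equal library totals, 0 of 7 with filterByExpr, 0 of 8 with no filter, and 1 of 5 (Prelp) with DESeq2. With 1 library left out it ranged from 0 to 1 and the count of members whose groups do not overlap ranged from 0 to 1, both at 1 without Vehicle 2. The median log2 fold change then ranged from −1.03 (without Vehicle 2, where Ogn also passed the filter) to −0.29 (without Vehicle 4). Lum changed sign with sex as a covariate (0.0867), in females alone (0.43), with the replicate number as a block (0.0383), and across the fits with 1 library left out (−0.26 to 0.33, above 0 without BAPN 3 and without Vehicle 4). Fmod changed sign in females alone (0.0946). Why these values moved was not tested. No alternative changed the sign of Dcn, Bgn or Prelp. With the replicate block, 0 members were called, Prelp stood at −1.05 (edgeR FDR = 0.12) and the median at −0.62. The replicate numbers do not pair the animals (correlations of same-numbered deviations 0.094, −0.265, 0.269 and −0.14 over 11682 genes). Over all genes the calls numbered 1957 with edgeR, 3202 with DESeq2, 930 with sex as a covariate, 87 in females alone, 556 with the block, and 388 (without Vehicle 1) to 2225 (without Vehicle 2) with 1 library left out. Adamts2 was not called with the block (edgeR FDR = 0.061), nor were Arid5b, Cd2, Cd34, Cd79b, Cd8a, Chst7, Cytl1, Des, Kitlg, Mmp14, Plin1, Scara5, Sh3pxd2a, Smtn, Tgfb3, Tpst1 and Vwf. Adamts5, Chst7, Igf1r, Kitlg, Mmp14, Tgfb3 and Tpst1 were called neither with sex as a covariate nor in females alone. Ogn, Aspn and Omd had at most 169, 31 and 3 reads in any library, which limits what can be said of them.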
